A study of Mus musculus with 11 samples.

Results

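The genes described here are 5 zinc importers of the ZIP family (Slc39a8, Slc39a14, Slc39a4, Slc39a10 and Slc39a1), the zinc exporter Slc30a1 and the vesicular transporter Slc30a3, the metallothioneins Mt1 and Mt2, and Mtf1, the transcription factor that senses zinc. They are 10 of the 19935 genes measured, and each was found by its symbol through the platform annotation of the arrays. The set was chosen by the values of 1 gene, Slc39a8, which had the largest rise of any gene when control cells were moved to N2B27 and was lower in mutant cells. Arrays of all 4 groups thus entered the choice, and the values of Slc39a8 are a description that carries no test. The other 9 genes were added as members of the same transport and buffering system.

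The study profiled mouse embryonic stem cells (ESCs) on 11 one-colour Affymetrix arrays, in 4 groups of 2 genotypes and 2 media. The groups are Bmpr1a-/- cells kept for 3 days in N2B27 (n = 3), wild-type E14 cells kept for 3 days in N2B27 (n = 3), Bmpr1a-/- cells in ESC medium (n = 2, the arrays numbered 2 and 3) and E14 cells in ESC medium (n = 3). They are called mutant and control below. Bmpr1a encodes a receptor that binds bone morphogenetic proteins, and N2B27 is a defined medium without serum, used to let ESCs differentiate. The mutant cells come from 3 lines, C1-6, Fr124 and Fr88, the labels do not say which line is on which array, and every control array is E14. A genotype difference therefore cannot be told apart from a difference between cell lines. No label states that replicate arrays were grown as separate cultures, and the p-values thus reflect only array-to-array spread, which could be technical.

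Values are log2 levels, centred per gene, which allows comparison between arrays but not between genes. Differences are log2 differences between group means with the moderated standard error (SE). A gene was called, and is said to have risen or fallen, where its limma adjusted p over all 19935 genes was under 0.05. In bulk samples fewer cells that express a gene and less RNA per cell cannot be told apart.

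Zinc enters the cytosol through ZIP (Slc39) proteins, from outside the cell or from organelles, and leaves it through ZnT (Slc30) proteins, across the plasma membrane or into vesicles. Metallothioneins are small cysteine-rich proteins that bind zinc and copper. When free zinc rises, MTF1 binds metal response elements in DNA and raises transcription of Mt1, Mt2 and Slc30a1, so these genes are commonly read as a report of cellular zinc. Slc39a8 (ZIP8) and Slc39a14 (ZIP14) are close relatives that carry zinc, manganese, iron and cadmium. Slc39a4 (ZIP4) is the importer that takes up dietary zinc in the gut.

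The promoters of Mt1, Mt2, Slc30a1 and Slc39a8 are shown because the first 3 are the usual reporters of MTF1 activity and Slc39a8 is the gene that moved most. Each run is the 250 bases before an annotated RefSeq start on GRCm38.p6, read 5′ to 3′ on the gene's strand. Capitals mark the core of the metal response element, searched on both strands as TGCACNC and TGCGCNC. Mt1 lies on chr8:94178839-94179088, Mt2 on chr8:94172368-94172617 and Slc30a1 on chr1:191906531-191906780. Slc39a8 has a pair of annotated starts, and the window shown, chr3:135825407-135825656, is the one with a match. All of these windows are on the forward strand.
Mt1: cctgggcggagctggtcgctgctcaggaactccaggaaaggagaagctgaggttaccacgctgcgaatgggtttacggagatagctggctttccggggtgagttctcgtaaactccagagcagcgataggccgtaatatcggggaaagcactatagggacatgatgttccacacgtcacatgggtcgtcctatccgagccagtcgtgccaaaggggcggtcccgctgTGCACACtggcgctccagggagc
Mt2: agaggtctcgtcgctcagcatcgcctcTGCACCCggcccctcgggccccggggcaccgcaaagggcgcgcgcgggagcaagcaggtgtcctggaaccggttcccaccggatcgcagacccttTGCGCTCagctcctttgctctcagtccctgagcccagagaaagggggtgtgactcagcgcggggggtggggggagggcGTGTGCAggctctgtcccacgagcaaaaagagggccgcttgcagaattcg
Slc30a1: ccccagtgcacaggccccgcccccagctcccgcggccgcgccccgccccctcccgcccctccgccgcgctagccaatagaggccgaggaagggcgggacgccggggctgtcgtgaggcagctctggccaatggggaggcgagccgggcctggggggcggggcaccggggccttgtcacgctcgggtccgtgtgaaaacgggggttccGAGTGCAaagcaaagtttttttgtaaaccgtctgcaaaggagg
Slc39a8: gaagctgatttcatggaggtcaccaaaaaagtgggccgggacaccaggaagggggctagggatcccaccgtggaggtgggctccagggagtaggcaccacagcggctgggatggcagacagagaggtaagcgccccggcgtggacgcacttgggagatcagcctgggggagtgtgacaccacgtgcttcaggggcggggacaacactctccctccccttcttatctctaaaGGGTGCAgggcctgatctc

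The Mt2 window held 3 matches, which begin 223, 128 and 50 bases before the start. The Mt1 window held 1 match at 23 bases, the Slc30a1 window 1 at 43 bases and the Slc39a8 window 1 at 19 bases. Of the 32851 windows of this length in the table, 21.4% held at least 1 match, 5.17% at least 2 and 1.26% at least 3. One of the windows of Slc30a3 also held a match, and those of Mtf1, Slc39a1 and Slc39a10 held none. A match describes letters only, and none of the arrays measured binding. Each window ends at an annotated start, so elements downstream of that start or further upstream are not counted. The counts therefore do not rank these promoters by their number of metal response elements.

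Some facts of the whole series bear on these genes. Bmpr1a read 0.15, -0.14 and -0.05 in mutant cells in N2B27, against 0.61, 0.68 and 0.76 in control cells there. In ESC medium it read -0.03 and 0.00 in mutant cells, against 0.37, 0.16 and 0.25 in control cells. The labels do not give the deleted part, so this is a weak check of the genotypes. The array numbered 2 of mutant cells in N2B27 stood apart, with a root mean square deviation from its group mean of 0.185 over all genes, against 0.0774 to 0.155 for the other 10 arrays. The control array numbered 1 in ESC medium was the highest of its 3 for 8 of the 10 genes described here and the lowest for the other 2. Markers of ESCs fell with the medium change in both genotypes, 8 of 8 in each. Over all genes, 10.3% were called as lower in mutant cells and 13.3% in control cells. The Nanog call in control cells was lost in 5 of the 6 fits with 1 array left out (adjusted p up to 0.085). The Pou5f1 call in mutant cells was lost in 4 of the 5 fits with 1 array left out. These include the fits without the N2B27 array numbered 1 (adjusted p = 0.0577) or 3 (adjusted p = 0.0664). Without the ESC medium array numbered 2 or 3, which leaves a single array in that group, its difference was -0.38 or -0.48. It was also lost in a fit of the compared groups alone (adjusted p = 0.0642).

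Markers of cell state also differed between genotypes. Over all genes, 4.1% were called as higher and 1.64% as lower in mutant cells in N2B27, and 3.09% and 3.05% in ESC medium. Of the 8 ESC markers, 4 were higher and none lower in mutant cells in N2B27, with Zfp42 at 1.78 (adjusted p = 0.00129) and Esrrb at 1.30 (adjusted p = 0.0057), both called without any single array. In ESC medium 3 were higher, led by Dppa3 at 0.88 (adjusted p = 0.0045), with Klf4 and Zfp42. After quantile normalization Dppa3 was not called (0.57, adjusted p = 0.0786), and Klf4 (-0.12) and Zfp42 (-0.23) changed sign. Each of the Klf4 and Zfp42 calls was also lost in 4 of the 5 fits with 1 array left out. The adjusted p was 0.118 and 0.133 without the control array numbered 2, and 0.131 and 0.119 without that numbered 3. Without the mutant array numbered 2 the differences were 0.64 and 0.72, and without that numbered 3 they were 0.65 and 1.03. Both calls were also lost from the compared groups alone (adjusted p = 0.123 and 0.0559) and with a trended robust prior (adjusted p = 0.116 and 0.0786). The mean of the 8 ESC markers ran from -0.31 to -0.27 across mutant arrays in N2B27, against -0.94 to -0.81 across control arrays. In ESC medium the mean was 1.69 on both mutant arrays, against 1.03 to 1.36 in control arrays. In both media the mutant arrays thus had the higher ESC marker mean in the values as deposited.

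Of the 8 neural progenitor markers, 2 were higher in mutant cells in N2B27, Tubb3 by 2.01 (adjusted p = 0.00129) and Nes by 1.27 (adjusted p = 0.0312). Over all genes 4.1% were called as higher there. The median of these markers in N2B27 was -0.03, with 4 of the 8 differences above 0, so the list did not shift as a whole. In ESC medium 2 were higher and 1 lower, where 3.09% of all genes were called as higher and 3.05% as lower. Sox11 fell by 1.22 on the log2 scale (adjusted p = 0.00159). Tubb3 was higher by 1.18 (adjusted p = 0.0189) and Ncam1 by 0.94 (adjusted p = 0.0211). Both of these calls were lost in 4 of the 5 fits with 1 array left out, and after quantile normalization (adjusted p = 0.0797 and 0.104). Of the 7 trophoblast markers, Tfap2c alone was called between genotypes, with 0.98 (adjusted p = 0.00238) in N2B27. Of the 7 measured fibroblast markers, 1 was lower in mutant cells in N2B27, Col1a2 at -0.58 (adjusted p = 0.0414), and 2 in ESC medium, Col1a1 at -1.32 (adjusted p = 0.00417) and Col1a2 at -0.73 (adjusted p = 0.0226). The Nes call was lost in 5 of the 6 fits with 1 array left out (adjusted p up to 0.108), as was that of Col1a2 in N2B27 (adjusted p up to 0.141), and that of Col1a2 in ESC medium in 3 of 5 (adjusted p up to 0.191). Zfp42 and Tubb3 lie on chromosome 8. The genotype differences of Slc39a8, Slc39a14, Slc39a4 and Mt1 given below come from the same arrays. Whether these marker shifts take part in them was not tested.

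**Figure D1:**
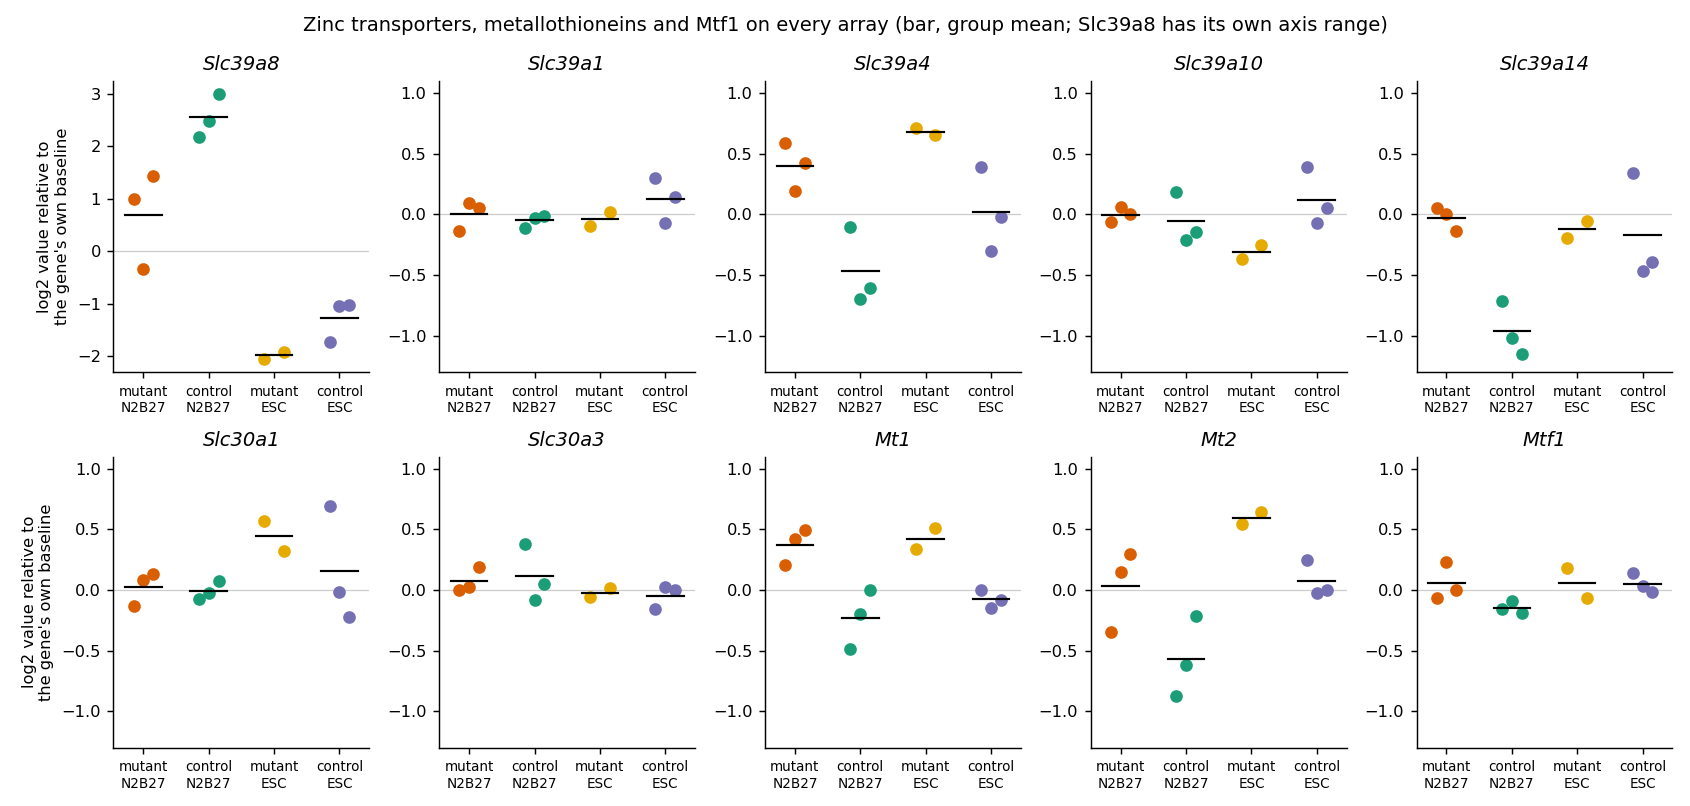
Log2 value of each of the 10 genes on every array, relative to that gene's baseline. Columns are the 4 groups, points are arrays and bars are group means. Slc39a8 spans -2.05 to 2.99 and has an axis range of its own.

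Slc39a8 was higher in N2B27 than in ESC medium in both genotypes, and in both media it was lower in mutant than in control cells. It read 1.00, -0.33 and 1.43 in mutant cells in N2B27, and 2.18, 2.48 and 2.99 in control cells in N2B27. The values in ESC medium were -2.05 and -1.92 in mutant cells, against -1.74, -1.04 and -1.02 in control cells. No pair of groups set against each other overlapped. The spread was widest in mutant cells in N2B27, with an SD of 0.92, against 0.41 in control cells in N2B27. The lowest of those mutant arrays, at -0.33, is the one that stood apart over all genes.

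In control cells the log2 difference of Slc39a8 between N2B27 and ESC medium was 3.82 (SE 0.40), a 14.1-fold rise and the first of all 19935 genes. The next gene was Greb1l with 3.18. In N2B27 its difference between mutant and control cells was -1.85 (SE 0.40), the sixth lowest of all genes, and -1.34 without the mutant array numbered 2. In ESC medium the difference was -0.72 (SE 0.45), and 0.04 after quantile normalization. The interaction, by which is meant how much the genotype difference in N2B27 exceeded the one in ESC medium, was -1.13 (SE 0.60), and -0.62 without the mutant array numbered 2 in N2B27. In mutant cells it was 2.68 higher (SE 0.45, 6.43-fold) in N2B27 than in ESC medium, the nineteenth largest increase, and 3.20 higher without the mutant array numbered 2 in N2B27. These values come from the arrays that chose the gene and are given with no test.

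Of the 9 other genes none was called between media in mutant cells, where 25.2% of all genes were called, 14.9% as higher and 10.3% as lower.

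Slc39a14, the closest relative of Slc39a8, ran the other way in control cells. It read 0.05, 0.00 and -0.14 in mutant cells in N2B27, against -0.71, -1.02 and -1.15 in control cells in N2B27. In ESC medium it read -0.19 and -0.05 in mutant cells, against 0.34, -0.47 and -0.39 in control cells. The control arrays in N2B27 were thus below all other 8 arrays, and the genotypes overlapped in ESC medium.

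Slc39a14 fell by 0.79 on the log2 scale (SE 0.19, adjusted p = 0.0128) in control cells in N2B27 over ESC medium. In mutant cells the medium difference was 0.09 (SE 0.21, adjusted p = 0.84). In N2B27 it was higher in mutant than in control cells by 0.93 (SE 0.19, 1.91-fold, adjusted p = 0.0226), while in ESC medium the genotypes differed by 0.05 (SE 0.21, adjusted p = 0.963). The difference between those genotype differences was 0.88 (SE 0.29) and was not called, with adjusted p = 0.184. The call in N2B27 was lost without the control array numbered 2 (adjusted p = 0.0746), the control array numbered 3 (adjusted p = 0.0913) or the mutant array numbered 1 (adjusted p = 0.0582), and after quantile normalization (adjusted p = 0.0511). The fall in control cells was lost without the control array numbered 3 in N2B27 (-0.69, adjusted p = 0.0524) and after quantile normalization (-0.63, adjusted p = 0.0571).

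**Figure D2:**
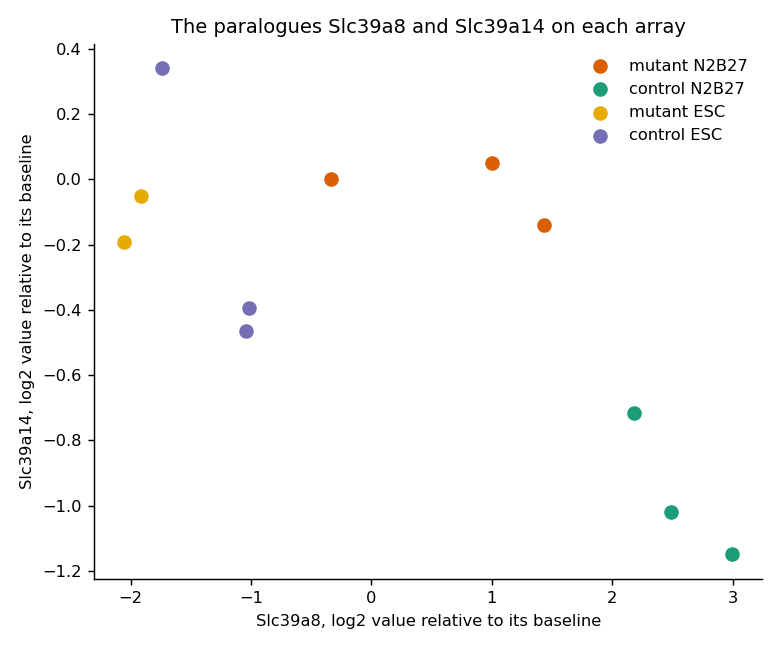
Slc39a14 against Slc39a8 on each of the 11 arrays, both as log2 values relative to the gene's own baseline. Control arrays in N2B27 lie at the highest Slc39a8 values, 2.18 to 2.99, and the lowest Slc39a14 values, -1.15 to -0.71.

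Slc39a4 was higher in mutant cells in both media, with a call in N2B27. It read 0.59, 0.19 and 0.42 in mutant cells in N2B27, against -0.10, -0.69 and -0.60 in control cells in N2B27. It read 0.71 and 0.65 in mutant cells in ESC medium, against 0.39, -0.30 and -0.02 in control cells there. The genotypes did not overlap in either medium. In N2B27 the difference was 0.87 (SE 0.19, 1.83-fold, adjusted p = 0.0298), and in ESC medium it was 0.66 (SE 0.22, adjusted p = 0.121).

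The N2B27 call of Slc39a4 was lost when any of 4 of the 6 arrays was left out. The adjusted p was 0.104 without the control array numbered 2, 0.115 without the control array numbered 3, 0.0787 without the mutant array numbered 1 and 0.0672 without the mutant array numbered 3. It was 0.0616 in a fit of the compared groups alone. In ESC medium the gene was called without the control array numbered 1, at 0.85 (adjusted p = 0.0334). In control cells its medium difference was -0.49 (SE 0.19, adjusted p = 0.0961). With the sample number as a block it was called as lower (adjusted p = 0.00589), and also without the control array numbered 2 in ESC medium (-0.65, adjusted p = 0.0431) or numbered 1 in N2B27 (-0.67, adjusted p = 0.0301). In mutant cells the medium difference was -0.28 (SE 0.22, adjusted p = 0.437).

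The importers Slc39a10 and Slc39a1 were called in no comparison of the joint fit. Slc39a10, a plasma membrane importer, read -0.06, 0.06 and 0.00 in mutant cells in N2B27, against 0.19, -0.21 and -0.14 in control cells. The values in ESC medium were -0.36 and -0.25 in mutant cells, against 0.39, -0.07 and 0.05 in control cells, which did not overlap. That genotype difference was -0.43 (SE 0.14, adjusted p = 0.127), and the medium difference in mutant cells was 0.31 (SE 0.14, adjusted p = 0.163). Slc39a1, a broadly expressed importer, stayed between -0.14 and 0.30 on all arrays, and its groups overlapped in every comparison. Its differences between groups ran from -0.17 in control cells between media to 0.05 in N2B27 between genotypes.

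The exporter Slc30a1, an MTF1 target in mice, showed no call in the joint fit either. It read -0.13, 0.08 and 0.13 in mutant cells in N2B27, against -0.07, -0.02 and 0.07 in control cells. In ESC medium it read 0.57 and 0.32 in mutant cells, against 0.70, -0.01 and -0.22 in control cells. The genotypes overlapped in both media, and 1 control array in ESC medium, numbered 1, was the highest of all. The medium difference in mutant cells was -0.42 (SE 0.22, adjusted p = 0.213), with groups that did not overlap. The genotype difference in ESC medium was 0.29 (SE 0.22, adjusted p = 0.595), and without the control array numbered 1 it was 0.57 and called (adjusted p = 0.0235).

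Slc30a3 (ZnT3), which loads zinc into synaptic vesicles of neurons, varied little. It read 0.00, 0.03 and 0.19 in mutant cells in N2B27, against 0.38, -0.08 and 0.05 in control cells. The values in ESC medium were -0.06 and 0.01 in mutant cells and -0.16, 0.03 and -0.0003 in control cells. Its groups overlapped in every comparison, and its largest difference was 0.16 (SE 0.11, adjusted p = 0.368) between media in control cells.

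Mt1 was higher in mutant than in control cells in both media and changed little with the medium. It read 0.20, 0.42 and 0.50 in mutant cells in N2B27, against -0.49, -0.20 and -0.0008 in control cells. In ESC medium it read 0.34 and 0.51 in mutant cells, against 0.00, -0.15 and -0.08 in control cells. No mutant array overlapped a control array in the same medium. In N2B27 the difference was 0.60 (SE 0.12, 1.52-fold, adjusted p = 0.0201), and it was lost without the control array numbered 2 (adjusted p = 0.058) or the mutant array numbered 3 (adjusted p = 0.0547), and in a fit of the compared groups alone (adjusted p = 0.086). In ESC medium the difference was 0.50 (SE 0.14, adjusted p = 0.0613). Between media it differed by -0.05 (adjusted p = 0.866) in mutant cells and -0.15 (adjusted p = 0.45) in control cells.

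Mt2 read -0.34, 0.15 and 0.30 in mutant cells in N2B27, against -0.87, -0.62 and -0.21 in control cells. The values in ESC medium were 0.54 and 0.64 in mutant cells, against 0.25, -0.02 and 0.00 in control cells. Its genotypes were apart in ESC medium and overlapped in N2B27. Every array in N2B27 lay below every array of its genotype in ESC medium for the mutant cells, and likewise for the control cells.

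The genotype difference of Mt2 was 0.60 (SE 0.19, adjusted p = 0.1) in N2B27 and 0.52 (SE 0.21, adjusted p = 0.223) in ESC medium. In N2B27 it was called with the sample number as a block (0.60, adjusted p = 0.0205), and without the mutant array numbered 1 (0.79, adjusted p = 0.0345). In control cells Mt2 fell by 0.64 on the log2 scale (SE 0.19, adjusted p = 0.0292) in N2B27 over ESC medium. That call was lost with the block (adjusted p = 0.0528). It was lost without any 1 of the 6 control arrays except that numbered 3 in N2B27, with adjusted p up to 0.107, reached without the array numbered 1 in N2B27. In mutant cells the medium difference was -0.56 (SE 0.21, adjusted p = 0.0821). Neither metallothionein showed an interaction, with 0.10 (adjusted p = 0.889) for Mt1 and 0.09 (adjusted p = 0.949) for Mt2.

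Mt1 and Mt2 lie side by side on mouse chromosome 8, and genes of that chromosome were higher in mutant cells as a group. Over its 955 genes the median genotype difference was 0.17 in N2B27, against -0.0047 over the other autosomes. In ESC medium it was 0.12, against -0.02. In N2B27, 242 chromosome 8 genes (25.3%) rose and 2 fell, and in ESC medium 150 (15.7%) rose and 10 fell. In N2B27, 81 of them differed by more than Mt1 and 82 by more than Mt2.

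With the chromosome 8 median taken off, Mt1 and Mt2 were each 0.43 higher in mutant cells in N2B27, and 0.38 and 0.40 higher in ESC medium. With every chromosome 8 value set relative to its array's chromosome 8 median, Mt1 in N2B27 was higher by 0.51 (adjusted p = 0.037) and Mt2 by 0.51 (adjusted p = 0.143). In chromosomal order the neighbours are Bbs2, Mt4, Mt3, Mt2, Mt1, Nup93 and Slc12a3. Nup93, a nuclear pore protein gene next to Mt1, was higher in mutant cells by 0.70 (adjusted p = 0.00689) in N2B27, and was not called from the compared groups alone (adjusted p = 0.0564). Bbs2, a cilium gene, differed by 0.18 (adjusted p = 0.36) in N2B27 and rose by 0.48 (adjusted p = 0.0266) in ESC medium, a call lost without any 1 of 4 of the 5 arrays (all but the control numbered 1, adjusted p up to 0.232, without the mutant numbered 2). Mt3, the metallothionein of brain, differed by -0.09 and Mt4, that of stratified epithelia, by -0.11 in N2B27. Neither was called in any comparison of the joint fit of all arrays, while other fits called Mt3. Without the mutant array numbered 2 in N2B27, Mt3 was lower in mutant cells there (-0.29, adjusted p = 0.0434). That fit also called it between media in mutant cells (-0.26, adjusted p = 0.0292) and in the interaction (-0.51, adjusted p = 0.0296). In control cells between media Mt3 was called as higher from the compared groups alone (adjusted p = 0.0153) and with array weights (adjusted p = 0.0231). How far the shift of chromosome 8 takes part in the Mt1 and Mt2 differences was not tested beyond these values.

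**Figure D3:**
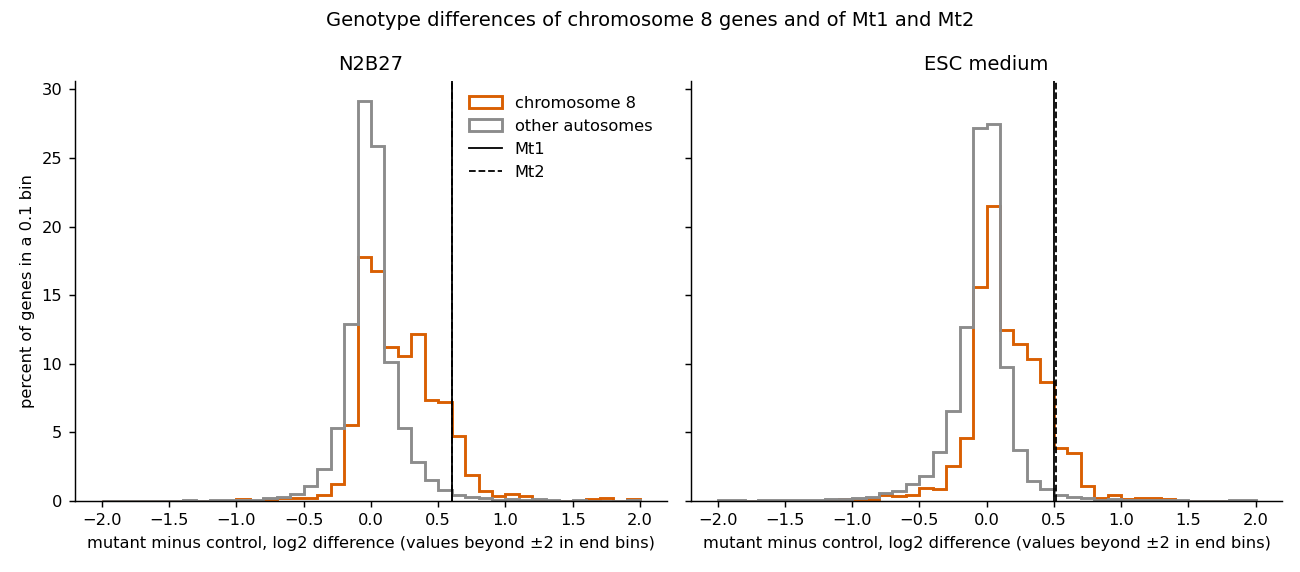
Distribution of mutant minus control log2 differences for genes of chromosome 8 and of the other autosomes, as the percent of genes in bins of 0.1, in N2B27 and in ESC medium. Vertical lines mark Mt1 and Mt2, at 0.60 and 0.60 in N2B27 and at 0.50 and 0.52 in ESC medium, on the right side of the chromosome 8 distribution.

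Mtf1 itself was called in no comparison of the joint fit. It read -0.07, 0.23 and 0.00 in mutant cells in N2B27, against -0.16, -0.09 and -0.19 in control cells, which did not overlap. In ESC medium it read 0.18 and -0.06 in mutant cells, against 0.14, 0.03 and -0.02 in control cells. The genotype difference was 0.20 (SE 0.09, adjusted p = 0.267) in N2B27 and 0.0083 (adjusted p = 0.989) in ESC medium. The medium difference was -0.0038 (adjusted p = 0.988) in mutant cells and -0.20 (SE 0.09, adjusted p = 0.159) in control cells, where a fit of the compared groups alone called it as lower (adjusted p = 0.0469).

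Taking the 9 genes other than Slc39a8, 3 were higher in mutant cells in N2B27 (Slc39a14, Slc39a4 and Mt1) and none was lower, where 5.74% of all genes were called, 4.1% as higher and 1.64% as lower. Their median difference was 0.20, against -0.001 over all genes. In ESC medium none of the 9 was called, where 6.14% of all genes were (3.09% higher, 3.05% lower), and their median was 0.05. In control cells 2 fell with N2B27 (Slc39a14 and Mt2) and none rose, where 26.1% of all genes were called, 12.8% as higher and 13.3% as lower, so the share of these genes is near the background. Their median there was -0.18, against 0.02 over all genes. In the interaction none of the 9 was called, where 2.12% of all genes were (1.57% higher, 0.552% lower). The comparisons of 1 genotype between media and of 1 medium between genotypes share arrays, so these counts are not independent.

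**Figure D4:**
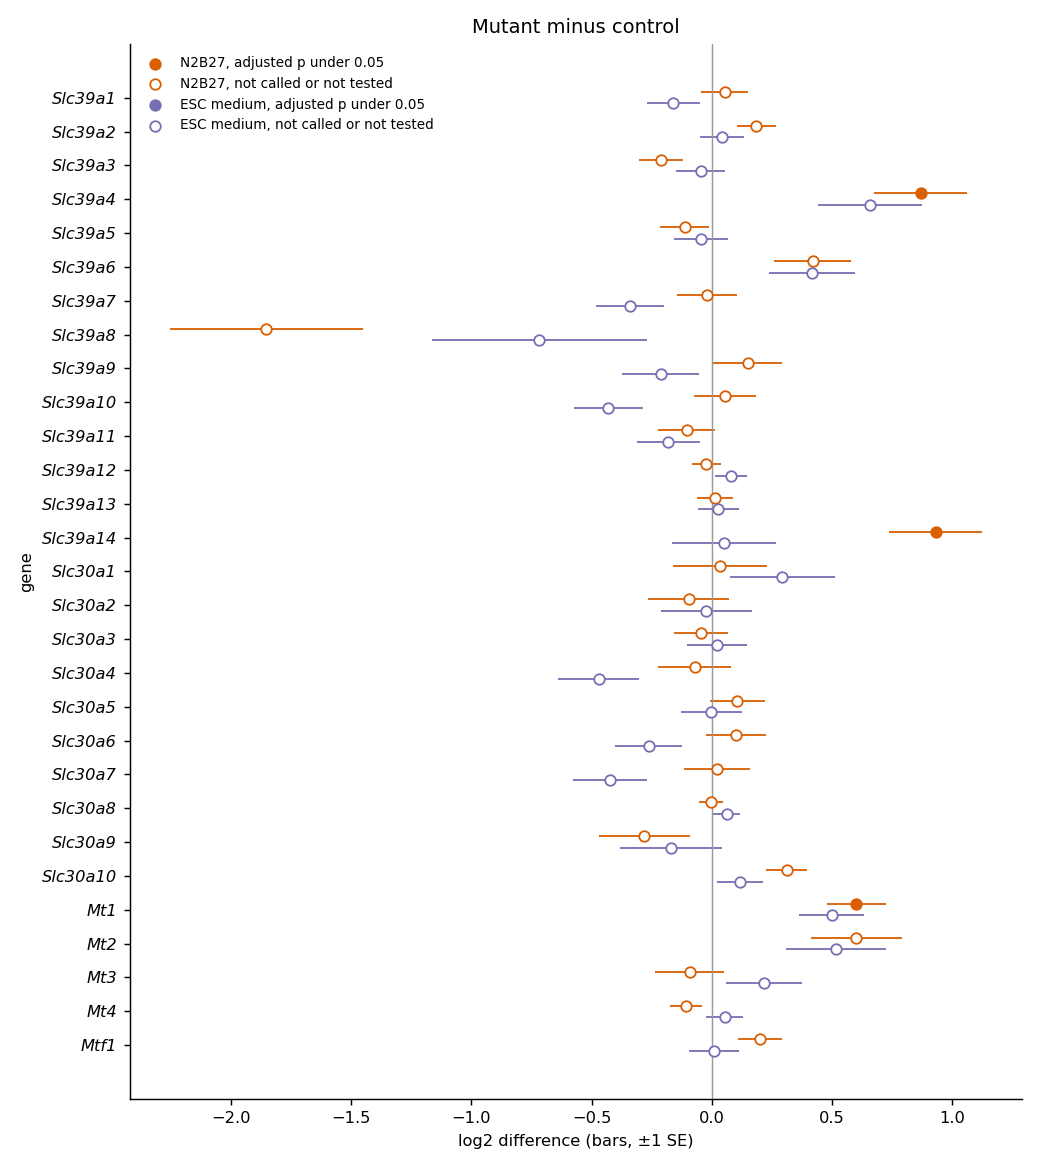
Mutant minus control log2 differences, with bars of 1 SE, of the 14 ZIP and 10 ZnT genes, the 4 metallothioneins and Mtf1, in N2B27 and in ESC medium. Filled points passed the adjusted p threshold; Slc39a8, at -1.85 in N2B27, was not tested, and the filled points are Slc39a14, Slc39a4 and Mt1 in N2B27.

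The wider families had few calls. With N2B27, 13.3% of all genes were called as lower and 12.8% as higher in control cells, and 25.2% were called in mutant cells. Of the 13 ZIP genes other than Slc39a8, 2 fell in control cells, a share near the background, and none rose. None was called in mutant cells. The pair are Slc39a14 and Slc39a9, a transporter of the Golgi, with -0.47 (SE 0.14, adjusted p = 0.0365). Slc39a9 was lost with the sample number as a block (adjusted p = 0.0806) and without any of 4 of the 6 arrays, the controls numbered 1 and 2 in each medium, with adjusted p up to 0.128. Between genotypes, Slc39a4 and Slc39a14 were the ZIP genes that rose in N2B27, where 4.1% of all genes were called as higher. None was called in ESC medium, where 6.14% of all genes were. With the sample number as a block, Slc39a5 was called as higher in control cells with N2B27 (0.24, adjusted p = 0.0418), as were Mt3 (0.25, adjusted p = 0.0386) and the ZnT gene Slc30a9 (0.51, adjusted p = 0.0412). Between genotypes in N2B27 the block added Slc39a6 (0.42, adjusted p = 0.037). The median difference of the 13 was -0.07 in control cells between media and 0.05 between genotypes in N2B27.

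Among the 10 ZnT genes, Slc30a2, a vesicular transporter known from the mammary gland, fell with N2B27 in both genotypes. Its differences were -0.58 (SE 0.19, adjusted p = 0.0449) in mutant cells and -0.51 (SE 0.17, adjusted p = 0.048) in control cells. Either call was lost when most single arrays were left out, with adjusted p up to 0.343 without the mutant array numbered 2 in ESC medium and up to 0.166 without the control array numbered 1 there. Slc30a7, a transporter of the early secretory pathway, rose by 0.71 (SE 0.15, adjusted p = 0.00688) in mutant cells and differed by 0.26 (SE 0.14, adjusted p = 0.215) in control cells. The difference between these was 0.45 (adjusted p = 0.382) and was not called. The Slc30a7 call was lost without the mutant array numbered 2 in ESC medium (adjusted p = 0.0544) and after quantile normalization (adjusted p = 0.0555). Between media, 25.2% of all genes were called in mutant cells and 26.1% in control cells. No ZnT gene was called between genotypes in either medium. Over all genes 5.74% were called between genotypes in N2B27 and 6.14% in ESC medium, so a lack of calls among 10 genes is near the background. The family's median difference lay between -0.03 and 0.05 in the comparisons of media and of genotypes.

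**Figure D5:**
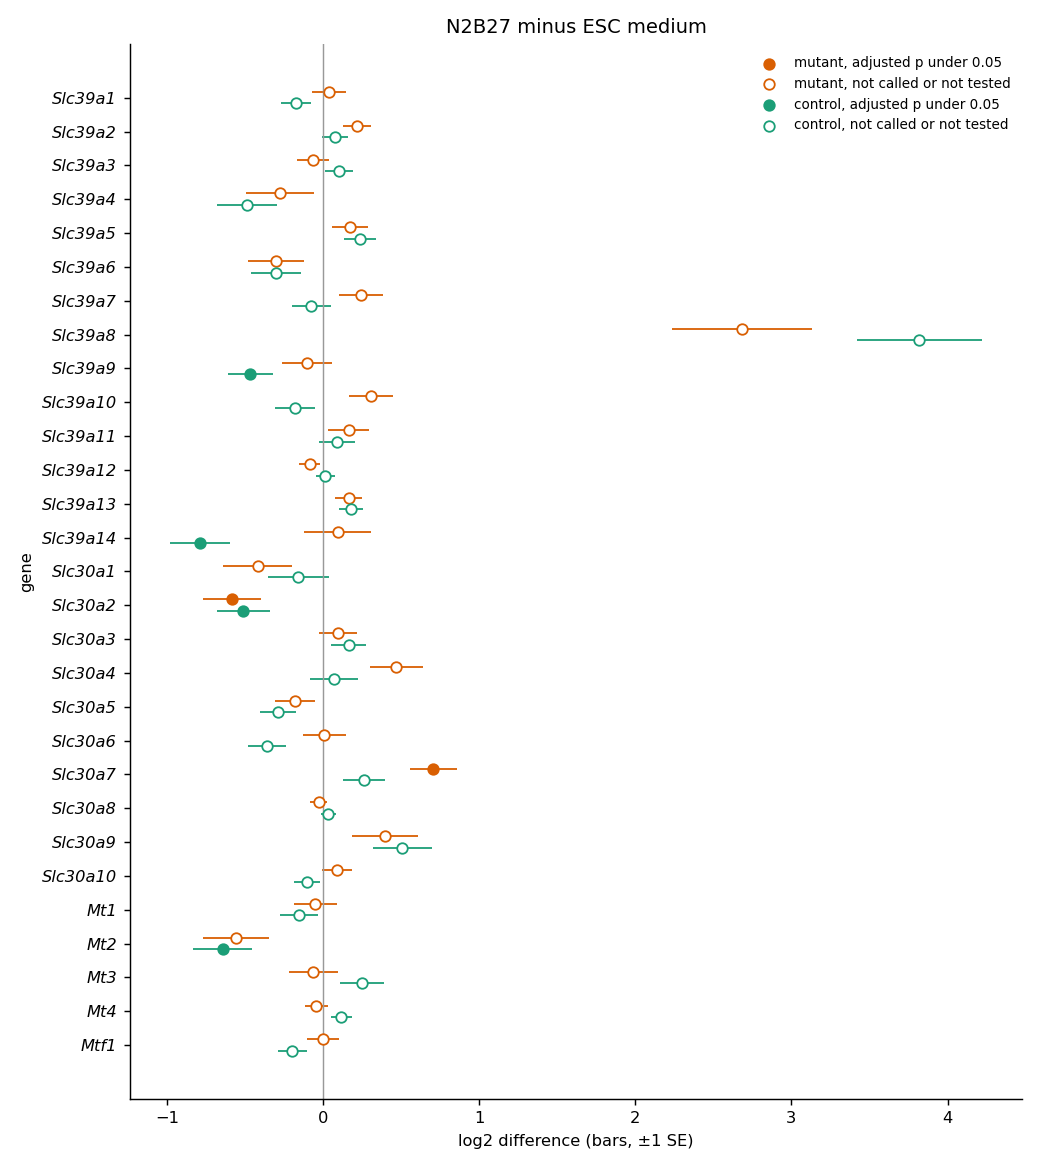
N2B27 minus ESC medium log2 differences, with bars of 1 SE, of the same genes in mutant and in control cells. Slc39a8 lies at 2.68 and 3.82, and all other genes lie between -0.79 and 0.71. Filled points passed the adjusted p threshold, and Slc39a8 was not tested.

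Among 9 known MTF1 targets, which include Mt1, Mt2, Slc30a1 and Slc39a10 as well as genes with other roles, 4 rose and none fell in mutant cells with N2B27. In control cells 3 rose and 1 (Mt2) fell. Over all genes 14.9% were called higher and 10.3% lower in mutant cells, and 12.8% and 13.3% in control cells. The list's medians were 0.31 and 0.29, against 0.0099 and 0.02 over all genes, with 5 of the 9 differences above 0 in each genotype. The median in mutant cells is the value of Slc39a10, which was not called. The list does not mark in which direction MTF1 moves each gene, so these medians are no reading of MTF1 activity. The genes that rose in both were Csrp1 (a LIM domain protein), Gclc (glutathione synthesis) and Selenow (a selenoprotein), by 1.69, 0.84 and 0.58 in mutant cells and by 0.76, 0.64 and 0.51 in control cells. The iron exporter Slc40a1 also rose in mutant cells, by 1.65 (adjusted p = 0.00215). All of these calls held without any single array. None of the risers is a metallothionein or a zinc transporter. With the sample number as a block, Ndrg1 was also called as higher in control cells (0.29, adjusted p = 0.0295).

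In ESC medium, Slc40a1, Csrp1 and Gclc were lower in mutant cells, by -1.32, -0.97 and -0.44, and Ndrg1, a stress-response gene, was higher by 1.05 (adjusted p = 0.00313). Of these, Ndrg1 was called without any single array, and the other 3 were lost in at least 1 such fit: Slc40a1 with adjusted p up to 0.207, Csrp1 up to 0.138 and Gclc up to 0.327, each without the mutant array numbered 2. These 3 were also not called after quantile normalization (adjusted p = 0.19, 0.222 and 0.827). In N2B27 Mt1 was the 1 MTF1 target called between genotypes. The list's median was 0.03 in N2B27 and -0.08 in ESC medium, against -0.001 and -0.0085 over all genes.

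Of 17 genes that handle iron, copper and manganese, which ZIP8 and ZIP14 can also carry, Tfrc, the transferrin receptor, had the largest difference in control cells between media. It fell with N2B27 by 1.05 on the log2 scale (SE 0.26, adjusted p = 0.0145) in mutant cells and fell by 2.54 (SE 0.24, adjusted p = 7.5e-05) in control cells. In N2B27 it was higher in mutant cells by 1.19 (SE 0.24, adjusted p = 0.0185). The interaction was 1.49 (adjusted p = 0.0642) and was not called. The fall in control cells was called without any single array. The genotype call was lost without the control array numbered 1 (adjusted p = 0.0574) or numbered 3 (adjusted p = 0.0789). The fall in mutant cells was lost without the mutant array numbered 2 (adjusted p = 0.0575) or numbered 3 (adjusted p = 0.11) in ESC medium, or numbered 3 in N2B27 (adjusted p = 0.0513).

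With N2B27, 4 genes of that list rose and 2 fell in mutant cells, against 3 that rose and 4 that fell in control cells. That is 6 and 7 of 17 called, where 25.2% and 26.1% of all genes were called. The copper pump Atp7b rose in both, by 0.81 (adjusted p = 0.0004) and 0.44 (adjusted p = 0.00632), and the copper chaperone Atox1 fell in control cells by 0.75 on the log2 scale (adjusted p = 0.0121). These calls held without any single array. With the block, the ferrireductase Steap3 was no longer called in control cells between media (0.66, adjusted p = 0.0535) and was called as lower in mutant than in control cells in N2B27 (-0.70, adjusted p = 0.0323). Its call between media was also lost in 4 of the 6 fits with 1 array left out (adjusted p up to 0.0967). The medians of the list were 0.13 in mutant and 0.02 in control cells. In ESC medium Slc40a1 was the 1 gene of the list called between genotypes.

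Metallothioneins also answer oxidative stress and heat shock, and targets of those pathways moved in several comparisons. Of 9 measured NRF2 targets, Hmox1 and Nqo1 were higher in mutant cells in N2B27, by 1.05 (adjusted p = 0.000945) and 0.68 (adjusted p = 0.0334), and in ESC medium, by 1.32 (adjusted p = 0.000261) and 1.23 (adjusted p = 0.00293). Both lie on chromosome 8. Hmox1 was called without any single array in both media, while Nqo1 in N2B27 was lost without any control array, or the mutant array numbered 2 or 3 (adjusted p up to 0.0985, without the control array numbered 1). The other genes were not called as higher in either medium, and Gclc was the 1 called as lower, in ESC medium. Over all genes 4.1% were called as higher in mutant cells in N2B27 and 3.09% in ESC medium. The list's median between genotypes was 0.02 in N2B27 and 0.14 in ESC medium. With N2B27, 2 of these targets rose and 4 fell in mutant cells, and 1 rose and 4 fell in control cells. Over all genes 14.9% were called higher and 10.3% lower in mutant cells, and 12.8% and 13.3% in control cells. Hmox1 differed by -1.10 and -0.82 in mutant and control cells, and Nqo1 by -1.09 and -0.54. The Nqo1 call in control cells was lost in 5 of the 6 fits with 1 array left out (adjusted p up to 0.1).

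Of 8 measured HSF1 targets, which include the heat shock proteins, 5 fell with N2B27 in mutant cells and 5 in control cells, and none rose, where 10.3% and 13.3% of all genes were called as lower. Hspb1, a small heat shock protein, fell by 1.38 on the log2 scale (adjusted p = 0.000377) in mutant cells and by 1.53 (adjusted p = 0.000135) in control cells. In N2B27 Hspb1 was higher in mutant cells by 0.85 (adjusted p = 0.0139), a call that held without any single array and was lost in a fit of the compared groups alone (adjusted p = 0.0748). Dnajb1, on chromosome 8, was higher by 0.49 (adjusted p = 0.0255), which was lost with the block (adjusted p = 0.0598) and without any single control array (adjusted p up to 0.0805, without that numbered 3). In ESC medium 2 were called as higher in mutant cells, Hspb1 by 0.70 (adjusted p = 0.0458) and Bag3 by 0.40 (adjusted p = 0.0371), and each was lost in all 5 fits with 1 array left out. All 8 differences between genotypes were above 0 in both media, with medians of 0.25 in N2B27 and 0.23 in ESC medium. The medians between media were -0.44 in mutant and -0.37 in control cells. Whether these shifts take part in the Mt1 and Mt2 values was not tested.

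Slc39a8 is also expressed in endoderm lineages, so their markers were read beside it. Of 11 markers of primitive and visceral endoderm, Dab2, an endocytic adaptor, was the 1 that rose with N2B27. It rose by 0.57 (adjusted p = 0.0138) in mutant and 0.73 (adjusted p = 0.00215) in control cells. Over all genes 14.9% were called as higher in mutant and 12.8% in control cells, so this count is not above the background. Between genotypes in N2B27, 1.64% of all genes were called as lower in mutant cells. Dab2 was also lower in mutant cells in N2B27, by -0.51 (adjusted p = 0.0435), a call lost without any single array other than the mutant numbered 1 (adjusted p up to 0.148, without the control numbered 3). Its rise in mutant cells was lost without the mutant array numbered 2 in ESC medium (adjusted p = 0.128). One of its clusters differed by no more than 0.03 in any of these comparisons. The mean over the 11 markers ran from -0.06 to 0.14 across mutant arrays in N2B27 and from 0.06 to 0.13 across control arrays in N2B27. The range in ESC medium was -0.03 to -0.0007 in mutant and -0.08 to 0.06 in control arrays. Their part in the Slc39a8 values was not tested.

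The genes whose pattern was most like that of Slc39a8 were found by the Euclidean distance over the 11 arrays, among 17094 genes, after each gene was centred on its own mean. They were Greb1l (1.67), Sema3c (1.83), Lrp2 (2.22), Car4 (2.36) and Bhlhe41 (2.62), against a distance of 5.98 between Slc39a8 and its own mean. Lrp2, an endocytic receptor, averaged 0.65 in mutant cells in N2B27, 1.66 in control cells in N2B27, -2.13 in mutant cells in ESC medium and -0.58 in control cells in ESC medium. Sema3c, a secreted guidance protein, averaged 0.93, 1.99, -1.55 and -0.53 in the same groups. Both had the order of groups that Slc39a8 had, which follows largely from their choice as nearest genes and is no separate result.

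The genes nearest to Mt1 were Dhx38 (0.271), Galnt7 (0.383), Rspry1 (0.393), Nacc1 (0.394) and Fkbp8 (0.405), against 1.02 between Mt1 and its mean. All 5 lie on chromosome 8, which holds 883 (5.17%) of the genes searched. For Slc30a3 they were Jph2 (0.183), Hic2 (0.22), Cebpe (0.238), Arfgap3 (0.25) and Nfe2l3 (0.253), against 0.456 between Slc30a3 and its mean. These distances describe 11 arrays that share the same 4 groups.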

How the data were processed

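Total RNA of mouse ESCs was profiled on one-colour Affymetrix whole-transcript arrays. The authors deposited log2 values per transcript cluster, for which the submitters' processing notes name RMA and version 1.2 of Affymetrix Expression Console. The log base is taken from RMA's usual output. Each cluster had been centred on its own baseline in a way that no label or header states: in 55.8% of the 28815 clusters an array sits at exactly 0. Brightness is therefore unknown, no probe could be called dim or saturated, and precision is limited by how few arrays there are.

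Clusters with 1 symbol in the platform annotation (21780, against 1605 with several and 5430 with none) were averaged per gene, which gave 19935 genes, 998 of them from several clusters; Slc39a1 has 2. Of the clusters with 1 symbol, 21689 matched RefSeq (GRCm38.p6) by Entrez identifier. No source used here gives the array's build, and RefSeq served for names, chromosomes, gene order and promoter sequences, which were matched by symbol. Windows were held for Slc39a8, Slc39a10, Slc39a1, Slc30a1, Slc30a3, Mt1, Mt2 and Mtf1. Those of Slc39a14 and Slc39a4 are not used here.

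Group means of the 4 groups were fitted jointly with limma 3.58.1 in R 4.3.3 (7 residual degrees of freedom, prior 3.02), with two-sided moderated tests and Benjamini-Hochberg adjustment over all genes. The fit was tested on simulated data. Named are all 10 genes, up to 4 called genes with the largest differences per list and comparison, and the 5 genes nearest to Slc39a8, Mt1 and Slc30a3. Bmpr1a, called cell type markers, the neighbours of Mt1 and Mt2 and genes whose call changed with the block were added to these. The members and lists were chosen with earlier results of these data known.

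Same-numbered arrays deviated together between genotypes in N2B27 (correlations 0.256, 0.430 and 0.158) and between media in control cells (0.138, 0.181 and 0.131), so the numbers may pair these arrays, on the values alone. The fit above has no block, and the value with the number as a block is given where it changes a call. The other comparisons have 2 pairs and were not taken as paired. Mutant cells in ESC medium have no array numbered 1 in this work.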

Additional observations from a re-analysis of the deposited data

How the results depend on the processing

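The number of genes called moved with the processing, and the cause was not tested except where fewer samples or genes entered. Between genotypes in ESC medium 1224 genes were called, against 3570 with the replicate block, 491 after quantile normalization, 3138 with array weights, 766 without chromosomes 8, X and Y, and 304 to 1428 when 1 array was left out. Of those calls 50.2% were higher, against 66.4% after quantile normalization and 35.0% without those chromosomes. Between genotypes in N2B27 there were 1144, against 397 from the compared groups alone, 2882 with array weights, 610 without those chromosomes and 454 to 1204 with 1 array left out. Between media the count was 5018 in mutant cells (7689 with array weights, 2720 to 5956 with 1 array left out) and 5205 in control cells (3987 to 4509 with 1 array left out). In the interaction it was 422, against 657 with the replicate block, 172 after quantile normalization, 1782 with array weights and 59 to 633 with 1 array left out.

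Of the 9 genes other than Slc39a8, none was called between genotypes in ESC medium, against 2 (Mt1 and Mt2) from the compared groups alone, 6 with the replicate block, 3 with array weights (Mt1, Mt2 and Slc39a4) and 0 to 2 with 1 array left out. The 6 called with the block were Mt1, Mt2, Slc30a1, Slc39a4 and Slc39a14 as higher and Slc39a10 as lower. In ESC medium the block pairs 2 numbers only and leaves out the control array numbered 1. In N2B27 3 were called, against 1 (Slc39a14) from the compared groups alone and 0 to 3 with 1 array left out, and 4 with the replicate block or array weights, which added Mt2. In control cells between media 2 were called, against 1 after quantile normalization (Mt2), 1 without chromosomes 8, X and Y (where Mt2 lies) and 1 to 2 with 1 array left out. There 3 were called from the compared groups alone, which added Mtf1, and with array weights, which added Slc39a4. No other call of these 9 changed with the block than those given above.

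Slc39a8 kept its direction in each comparison except between genotypes in ESC medium, where quantile normalization gave 0.04. It gave 4.50 between media in control cells and -2.32 for the interaction, which array weights put at -0.51. Near-zero differences changed sign. With the replicate block these were Slc30a3 between genotypes in ESC medium (-0.034), and Mt1 (0.035) and Mtf1 (0.058) between media in mutant cells. With array weights they were Slc30a3 between genotypes in ESC medium (-0.017), in N2B27 (0.10) and in the interaction (0.12), Slc30a1 between media in control cells (0.0051) and Mt1 between media in mutant cells (0.039). Mt1 there was 0.014 after quantile normalization, and 1 of the 2 Slc39a1 clusters gave -0.073 there.

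With 1 array left out, signs changed within these ranges. Between genotypes in ESC medium they were -0.10 to 0.31 for Slc39a14, -0.034 to 0.059 for Slc30a3 and -0.11 to 0.13 for Mtf1. In N2B27 they were -0.023 to 0.18 for Slc39a10, -0.019 to 0.11 for Slc30a1 and -0.14 to 0.089 for Slc30a3. Between media they were -0.35 to 0.11 for Slc30a1 in control cells, and -0.019 to 0.11 for Slc39a1, -0.14 to 0.037 for Mt1 and -0.13 to 0.12 for Mtf1 in mutant cells. In the interaction they were -0.17 to 0.065 for Slc30a3, -0.025 to 0.22 for Mt1 and -0.067 to 0.27 for Mt2. Median centring and a trended robust prior changed no call of the 10 genes.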
